A study of Homo sapiens with 2 samples.

Results

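The genes described here encode core subunits of Polycomb repressive complex 2 (PRC2) and the enzymes that write and oxidise DNA methylation. They are 10 genes listed by symbol, EZH1, EZH2, EED, SUZ12, DNMT1, DNMT3A, DNMT3B, TET1, TET2 and TET3, out of 60554 genes in the count files, by a rule that uses no measured value. All 10 symbols were found in the files through GENCODE version 44. RNA that stays bound to chromatin was isolated by fractionation of SH-SY5Y cells, an established human neuroblastoma line of adrenergic type, without genetic modification. The 2 libraries are replicates of this 1 condition, and no source used here says whether they came from separate cultures, so the spread between them may be technical. No other condition was sampled, so the comparisons below are between genes within a library.

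PRC2 places methyl groups on lysine residue K27 of histone H3, a mark of silenced genes. Its catalytic subunit is either EZH2, which is typical of dividing cells, or its paralogue EZH1, which is more usual in resting cells, and both need EED and SUZ12. DNMT1 copies the methylation of CpG dinucleotides to the new DNA strand after replication, DNMT3A and DNMT3B set new methylation, and the TET dioxygenases oxidise methylcytosine as a step toward its removal.

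The libraries held 4155210 and 3425309 sense counts in genes, which are 18.5% and 17.5% of their uniquely mapped read pairs, while 79.4% and 80.7% lay in no annotated exon of the counted strand. Reads in bases that are intron in every annotated transcript are outside the values below, while bases that are exon in some transcript and intron in the main one are counted. The counts are averages over the cells, so a gene transcribed in few cells and a gene transcribed weakly in all of them cannot be told apart. The labelled cell type was checked against its markers. The summed levels of 8 sympathetic neuroblast markers were 3299 and 2729 CPM (counts per 1000000 sense counts in genes). Of these markers, 8 of 8 had a mean count of at least 10, as did 59.4% of all protein-coding genes. None of the 4 leukocyte, 4 endothelial and 4 Schwann cell markers did, and the summed level of each of these lists stayed between 0.241 and 0.481 CPM in either library. PTPRC, CD3E, CD68, CDH5, PECAM1, S100B and SOX10 had no sense count.

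All 10 members were detected at a mean sense count of at least 10, which 59.4% of the 19586 protein-coding genes reached. Together they held 6571 counts in replicate 1 and 5304 in replicate 2, or 0.158% and 0.155% of the libraries. Long genes collect more read pairs, so levels of different genes were compared as CPM per kb of exon, with the exons of all GENCODE transcripts of a gene merged. On this scale EZH2 and DNMT3A stood highest with 26.0 ± 0.0372 and 25.9 ± 1.78 (SD, n = 2), followed by TET1 with 20.5 ± 0.0894 and DNMT1 with 14.3 ± 0.832. TET2, SUZ12, EZH1 and EED lay between 9.68 and 12.5. TET3 with 5.82 ± 0.288 and DNMT3B with 1.98 ± 0.572 closed the order. The median of the members was 12.4 CPM per kb, against 1.90 for all protein-coding genes and 6.50 for the 11637 of them that were detected.

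Neighbours in this order were called separated where the exact 95% interval of their ratio of counts per kb excluded 1 in the same direction in both libraries. This held for 5 of the 9 neighbouring pairs and for 40 of all 45 pairs of members. The pairs that were not separated were EZH2 and DNMT3A, DNMT1 and TET2, TET2 and SUZ12, SUZ12 and DNMT1, and EZH1 and EED. These intervals cover counting error only. The order of neighbours was taken from the same counts, and how often other pairs of genes are separated was not tested. An exact permutation over 2 libraries cannot give a p below 0.5, so no p is given for the order.

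The order depends on the exon length that is used. The same counts, taken over all exons of a gene, were also divided by the length of the main transcript (MANE Select, the agreed reference transcript of a gene), which gives higher values to genes with many exon bases outside it. On that scale EZH2 led with 105 ± 0.151 CPM per kb, ahead of DNMT1 with 41.7 ± 2.42, DNMT3A with 37.9 ± 2.61 and EED with 32.4 ± 2.99 (SD, n = 2). TET3 with 6.24 ± 0.309 and DNMT3B with 3.13 ± 0.907 remained the lowest members. The largest shift was that of EZH2, whose merged exons span 10774 bases and whose main transcript has 2654, while TET1 has 9612 bases on either scale.

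**Figure D1:**
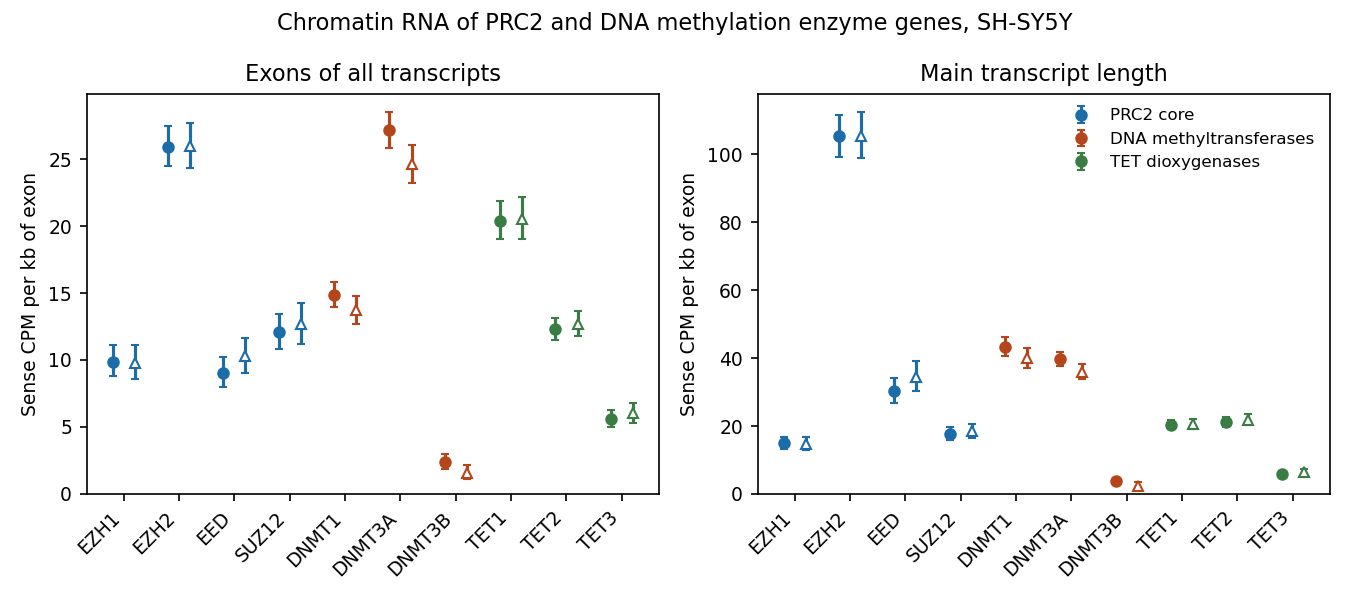
Sense CPM per kb of exon (vertical axes) of the 10 members, with the merged exons of all transcripts at the left and the same counts per kb of the main transcript at the right. Replicate 1 is drawn as filled circles and replicate 2 as open triangles, with bars for exact 95% Poisson intervals of the counts. EZH2 is high and DNMT3B and TET3 are low on both scales, while the places of EED, DNMT1 and TET1 among the others differ between the panels.

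Of the 2 catalytic subunits of PRC2, EZH2 had more chromatin RNA than EZH1, in counts and per kb of exon. EZH2 lies on chromosome 7 of hg38 from 148807257 to 148884321 on the minus strand, and EZH1 on chromosome 17 from 42700275 to 42745049, also on the minus strand. EZH2 had 1161 and 959 sense counts in replicates 1 and 2, or 279 and 280 CPM. EZH1 had 287 and 234 counts, or 69.1 and 68.3 CPM. In CPM, which takes no account of exon length, the values of the libraries did not overlap between the genes. How often other pairs of genes overlap was not tested. Per kb of merged exon, EZH2 stood 2.62-fold (95% interval 2.30 to 3.0) above EZH1 in replicate 1 and 2.66-fold (2.30 to 3.08) in replicate 2, a log2 ratio of 1.40 ± 0.0133 (SD, n = 2). With the main transcript length the log2 ratio was 2.83. EZH2 made up 72.5% ± 0.183 (SD, n = 2) of the summed level of both genes. Among protein-coding genes EZH2 lay above 94.4% and EZH1 above 79.1% by CPM per kb.

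The bases just before the start of the main transcript of the 2 paralogues are shown because their levels differ so clearly. Each run holds 250 bases of hg38 on the strand of the gene, ending at the base before the start, and CpG dinucleotides, the substrate of the methyltransferases, are in capitals. The EZH1 run is chr17:42745041-42745290 and the EZH2 run is chr7:148884292-148884541, both minus strand.

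EZH1: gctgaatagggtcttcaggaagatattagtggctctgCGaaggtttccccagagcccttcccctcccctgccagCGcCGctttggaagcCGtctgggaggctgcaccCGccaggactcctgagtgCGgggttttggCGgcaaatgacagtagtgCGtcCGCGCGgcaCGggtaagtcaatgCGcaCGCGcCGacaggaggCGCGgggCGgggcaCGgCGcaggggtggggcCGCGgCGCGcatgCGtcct
EZH2: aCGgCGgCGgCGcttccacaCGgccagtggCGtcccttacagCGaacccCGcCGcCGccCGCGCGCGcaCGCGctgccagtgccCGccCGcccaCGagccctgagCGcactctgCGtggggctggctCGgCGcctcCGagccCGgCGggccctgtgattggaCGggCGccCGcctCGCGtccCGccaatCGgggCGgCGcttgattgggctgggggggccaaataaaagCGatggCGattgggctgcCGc

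EZH2 has 38 CpGs in this window and EZH1 has 26, against a median of 18 in the same window of 19060 protein-coding genes. The EZH2 window also holds 4 matches to CCAAT on either strand and EZH1 holds none. A match to CCAAT is present in 34.4% of all these windows and in 3 of the 10 members (EZH2, EED and SUZ12). The E2F words TTTGGCGC and TTTCCCGC, searched on both strands, were in the window of SUZ12 alone among the members and in 2.69% of all windows. EZH2 and DNMT3A, the highest members per kb of merged exon, have 38 and 33 CpGs. Of the TET genes, TET1 has 9 CpGs and the highest level on that scale, and TET3 has 37 and the lowest. A relation between CpG number and level over the members was not tested. Of the 10 windows, 8 hold more CpGs than the median, as do 49.6% of all windows.

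EED and SUZ12, the non-catalytic core subunits among the members, were closer to EZH1 than to EZH2. EED, a reader of the methyl mark itself, lies on chromosome 11 from 86201212 to 86278813 (plus strand) and had 263 and 247 sense counts, or 63.3 and 72.1 CPM. SUZ12, which holds the complex together, lies on chromosome 17 from 31937007 to 32001038 (plus strand) and had 329 and 284 counts, or 79.2 and 82.9 CPM. Both libraries of SUZ12 lay above both of EED in CPM, but by raw counts the genes were not separated (log2 ratio of EED to SUZ12 -0.26). Per kb of merged exon, EED reached 0.749 (0.634 to 0.883) of the level of SUZ12 in replicate 1 and 0.815 (0.684 to 0.969) in replicate 2, a log2 ratio of -0.36 ± 0.0860 (SD, n = 2), but with the main transcript length the direction turned, to 0.84. The direction between these subunits is therefore not fixed by the data, while EZH2 stood above both on either length. Both scales divide the same counts, and the main transcript length raises EZH2 most, so the second scale adds no independent support.

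A pseudogene named after SUZ12 had more counts than SUZ12. SUZ12P1, a transcribed partial copy on the same strand of chromosome 17 from 30731886 to 30776402, lies 1161 kb before SUZ12. It had 544 and 466 sense counts, against 329 and 284 for SUZ12, a ratio of 1.65 (1.44 to 1.90) in replicate 1 and 1.64 (1.41 to 1.91) in replicate 2. Both libraries of SUZ12P1 lay above both of SUZ12 in counts, without regard to exon length. No level per kb is given for SUZ12P1, because its exons in the annotation behind the files may differ from those used here. In all, 518 of the 6551 exon bases of SUZ12 (7.91%) have a copy of at least 75 bases at 95% identity or more inside SUZ12P1. Of these, 192 bases lie in exact copies of at least 75 bases, the length of a read before identifiers were extracted and reads trimmed. Shorter exact copies, which may hold a whole trimmed read, were left out. Pairs without a unique place in the genome enter no count. Whether such losses or misplaced pairs touch the counts of either gene was not tested.

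The other pseudogenes named after members were almost silent. EZH2P1, EEDP1 and TET1P1 had no count on either strand, and DNMT3AP1 had no sense count and 1 opposite count. A gene without a sense count in both libraries is bounded at 0.396 CPM, by 3 counts over both. Exact copies of 75 bases or more elsewhere in the genome were found for 192 exon bases of SUZ12 and 111 of TET1, and for none of the other 8 members. At 95% identity or more over at least 75 bases, copies covered 884 exon bases of SUZ12 (13.5%) at 456 places, 427 of EZH1 (6.11%) at 91, 818 of DNMT1 (5.32%) at 236, 276 of TET1 (2.87%) at 1, 308 of EZH2 (2.86%) at 2 and 93 of EED (1.33%) at 1. No such copy was found for DNMT3A, DNMT3B, TET2 and TET3. Each merged exon was searched alone, so copies that reach 75 bases only across joined exons could not be found. The part of these copies in the counts was not tested.

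Among the DNA methyltransferases, DNMT3A and DNMT1 had high levels and DNMT3B a low one. DNMT3A lies on chromosome 2 from 25227855 to 25342590 (minus strand) and had 1554 and 1162 sense counts, or 374 and 339 CPM, the highest CPM of the members. DNMT1 lies on chromosome 19 from 10133342 to 10231286 (minus strand) and had 951 and 722 counts, or 229 and 211 CPM. DNMT3B lies on chromosome 20 from 32762385 to 32809359 (plus strand) and had 68 and 37 counts, or 16.4 and 10.8 CPM. The values of the 3 genes did not overlap in CPM, which takes no account of exon length. Per kb of merged exon, DNMT3A stood 11.4-fold (8.94 to 14.8) above DNMT3B in replicate 1 and 15.7-fold (11.3 to 22.4) in replicate 2, and DNMT1 stood 6.25-fold (4.89 to 8.12) and 8.72-fold (6.27 to 12.5) above it. The log2 ratios were 3.74 ± 0.324 and 2.88 ± 0.340 (SD, n = 2). With the main transcript length they were 3.62 and 3.76. DNMT3B lay at the middle of all protein-coding genes, above 50.4% of them by CPM per kb.

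DNMT1 reached 0.548 (0.505 to 0.595) and 0.557 (0.507 to 0.612) of the level of DNMT3A per kb of merged exon, a log2 ratio of -0.86 ± 0.0155 (SD, n = 2), but the direction turned to 0.14 with the main transcript length. Of the summed level of the 3 genes per kb of merged exon, DNMT3A made up 61.4% ± 0.413, DNMT1 33.9% ± 0.593 and DNMT3B 4.65% ± 1.01 (SD, n = 2). The 250 bases before the start of DNMT3A are shown in the same way, since it had the highest CPM of the members. The run is chr2:25341926-25342175 on the minus strand.

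DNMT3A: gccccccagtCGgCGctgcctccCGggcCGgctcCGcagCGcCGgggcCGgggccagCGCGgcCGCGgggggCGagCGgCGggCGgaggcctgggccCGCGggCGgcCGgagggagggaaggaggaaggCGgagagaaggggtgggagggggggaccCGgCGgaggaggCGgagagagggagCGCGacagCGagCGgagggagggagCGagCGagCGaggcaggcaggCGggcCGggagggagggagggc

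DNMT3A has 33 CpGs in this window, above the median of 18 and between the 26 of EZH1 and the 38 of EZH2. No other start of these genes was looked at.

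The 3 TET genes were all transcribed, and TET3 had the lowest level. TET1 lies on chromosome 10 from 68560337 to 68694487 (plus strand) and had 815 and 676 sense counts, or 196 and 197 CPM. TET2 lies on chromosome 4 from 105145875 to 105279816 (plus strand) and had 841 and 716 counts, or 202 and 209 CPM. TET3 lies on chromosome 2 from 73984910 to 74108176 (plus strand) and had 302 and 267 counts, or 72.7 and 77.9 CPM. TET3 lay below the other two in each library. Per kb of merged exon, TET3 reached 0.275 (0.240 to 0.314) of the level of TET1 in replicate 1 and 0.293 (0.254 to 0.338) in replicate 2, a log2 ratio of -1.82 ± 0.0651 (SD, n = 2). Against TET2 it reached 0.457 (0.399 to 0.522) and 0.475 (0.411 to 0.547), a log2 ratio of -1.10 ± 0.0385 (SD, n = 2). With the main transcript length these ratios were -1.71 and -1.78.

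TET1 and TET2 could not be ordered. TET2 had slightly more counts in both libraries, and per kb of merged exon it reached 0.602 (0.546 to 0.664) and 0.618 (0.556 to 0.688) of TET1, a log2 ratio of -0.71 ± 0.0266 (SD, n = 2). With the main transcript length the log2 ratio was 0.068 and with raw counts 0.064, and in neither case were the genes separated. The merged exons of TET2 span 16474 bases and its main transcript has 9589. Of the summed TET level per kb of merged exon, TET1 made up 52.8% ± 0.671, TET2 32.2% ± 0.185 and TET3 15.0% ± 0.486 (SD, n = 2).

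**Figure D2:**
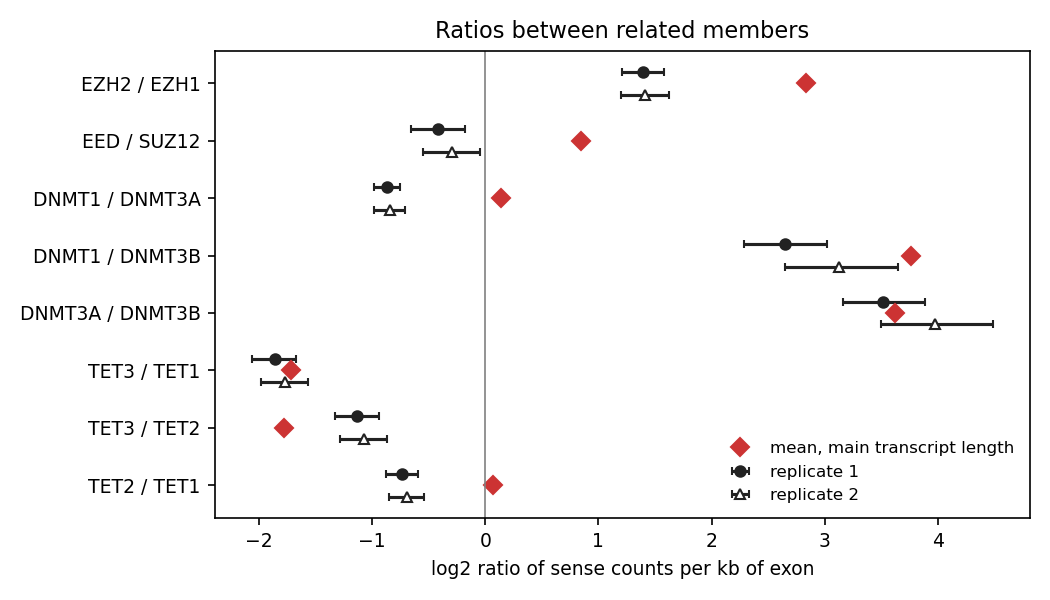
Log2 ratios of sense counts per kb of exon (horizontal axis) for 8 pairs of related members. Filled circles are replicate 1 and open triangles replicate 2 with merged exons, bars are exact 95% intervals from the counts, and red diamonds are the mean of both libraries with the main transcript length. The diamonds of EED / SUZ12, DNMT1 / DNMT3A and TET2 / TET1 lie on the other side of 0, and those of the other 5 pairs on the same side.

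The libraries were close to each other for most members. EZH2, TET1 and EZH1 differed least, with log2 ratios of replicate 2 to replicate 1 of 0.0029, 0.0089 and -0.016 in CPM, and DNMT3B differed most with -0.60. The share of a gene's counts that came from replicate 2 was compared with the 45.2% of all counts. Its exact 95% interval excluded that share in 2 of the 10 members, against 18.0% of the 14978 genes that were detected, so the share of members was near that of all genes. The 2 members were DNMT3A with 42.8% (40.9 to 44.7) and DNMT3B with 35.2% (26.2 to 45.17), just below the 45.19% of all counts, both lower in replicate 2. Under size factors by the median of ratios, which put the expected share at 45.11%, DNMT3A alone was called. The ratios of DNMT1 and DNMT3A to DNMT3B differed more between the libraries than that of DNMT1 to DNMT3A, which was -0.87 and -0.84 on the log2 scale.

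Almost all RNA of the members lay on the annotated strand. Of their 11957 counts on both strands, 82 (0.686%) were on the opposite strand, compared with 11.5% and 11.3% of all counts in the libraries. The opposite share was below that of all counts in both libraries, by exact 95% intervals, in 10 of 10 members, and in 40.7% of the 19327 genes with enough counts. The median share of detected protein-coding genes was 0.749%, so the members were not apart from other coding genes. EZH2 had 18 opposite counts in each library, 1.67% (1.17 to 2.30) of its counts. EZH1 had 8 and 4, or 2.25% (1.17 to 3.90), and TET2 had 6 and 8, or 0.891% (0.488 to 1.49). These 3 genes held 62 of the 82 opposite counts. DNMT3A had 4 and 5, DNMT1 had 3 and 1, EED had 2 in each, and DNMT3B, TET1 and TET3 had 1 each over both libraries. SUZ12 had 0 of 613, which allows a share of up to 0.489% by a limit of 3 counts and up to 0.600% by the exact interval.

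Few annotated genes share exons with the members. S1PR2 on the strand of DNMT1 overlaps 83 of its exon bases and had 39 and 29 sense counts, and an unnamed lncRNA (ENSG00000235499) on the strand of TET3 overlaps 390 bases (3.01% of its exons) and had 43 and 20. Read pairs in exons that are shared in the annotation behind the files are given to no gene. All 390 exon bases of ENSG00000235499 lie in TET3 exons as used here, yet it had counts. The exons behind the files may therefore differ there, and the effect on the level of TET3 per kb was not tested. An unnamed lncRNA (ENSG00000288809) on the other strand of EED and the microRNA gene MIR6755 on its own strand have no row in the files used here. TET2-AS1, a lncRNA gene of 537 exon bases inside TET2 on the other strand (chromosome 4 from 105171354 to 105178063), shares no exon with TET2. It had no sense count, but 51 and 43 counts opposite to itself, that is on the strand of TET2, or 22.9 and 23.4 CPM per kb. The merged exons of TET2 had 12.3 and 12.7 CPM per kb. By position, the exons of TET2-AS1 lie in bases that are intron in every annotated TET2 transcript. Whether these pairs came from TET2 transcripts was not tested.

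**Figure D3:**
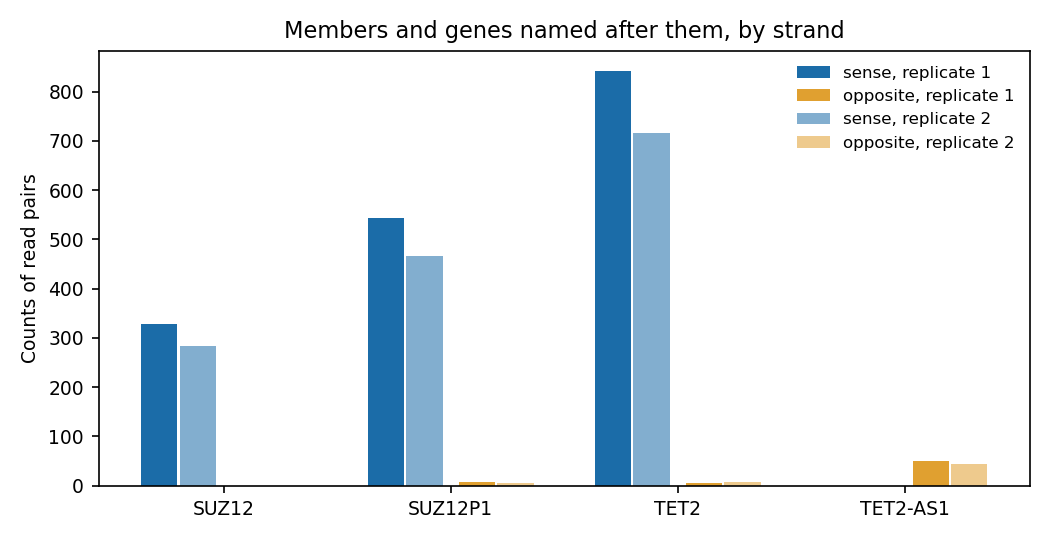
Counts of read pairs per gene (vertical axis) for SUZ12 and its pseudogene SUZ12P1, and for TET2 and TET2-AS1. Blue bars are sense counts and orange bars counts of the opposite strand, dark for replicate 1 and light for replicate 2. SUZ12P1 with 544 and 466 sense counts stands above SUZ12, and TET2-AS1 has counts only on the strand opposite to its own.

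The wider pathway was described through 6 lists with 54 genes, of which 48 were detected, as were 59.4% of all protein-coding genes. The list medians below are over all genes of a list, and the levels per kb use merged exons. The medians of all and of detected protein-coding genes were 1.90 and 6.50 CPM per kb. Of 10 PRC2-related genes beyond the members, 8 were detected, with a median of 9.35 CPM per kb. MTF2, which helps PRC2 to find CpG-rich DNA, led with 36.8 ± 1.19, followed by the histone chaperone RBBP4 with 27.8 ± 3.13 and the DNA-binding subunit JARID2 with 11.9 ± 1.06 (SD, n = 2). The inhibitor EZHIP had 3 and 7 counts, and EPOP had none. The demethylases of the PRC2 mark, KDM6B and KDM6A, had 7.07 ± 0.224 and 5.58 ± 0.222 CPM per kb (SD, n = 2). In CPM, without regard to exon length, their order was the other way, with 52.3 for KDM6B and 155 for KDM6A. EZH2 stood above both per kb of merged exon.

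Polycomb repressive complex 1, of which only some forms bind the mark of PRC2, ubiquitinates histone H2A. It had 18 of 19 genes detected and a median of 7.68 CPM per kb. PCGF3, CBX2 and YAF2 led with 23.5 ± 0.352, 21.3 ± 1.68 and 18.3 ± 0.251 (SD, n = 2), and RYBP, the paralogue of YAF2, had 4 counts in each library. PCGF3 also had a mean of 130.5 counts on the opposite strand.

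Of 8 cofactors of DNA methylation, 6 were detected, with a median over all 8 of 21.8 CPM per kb. PCNA, the sliding clamp of replication that binds DNMT1, led with 70.8 ± 2.46, followed by TRIM28 with 36.1 ± 4.75 and UHRF2 with 29.8 ± 1.57 (SD, n = 2). DNMT3L, the germline partner of the DNMT3 enzymes, and the imprint factor ZFP57 had no count. All 6 methyl CpG binding genes were detected, with a median of 5.75 CPM per kb, led by MBD1 with 28.0 ± 0.993, MBD4 with 19.2 ± 0.495 and MBD2 with 7.59 ± 0.640 (SD, n = 2). Of 9 partners of demethylation, 8 were detected with a median over all 9 of 10.1 CPM per kb. OGT, the sugar transferase that binds TET proteins, led with 60.0 ± 1.06, ahead of GADD45A with 26.6 ± 6.94 and the glycosylase TDG, which removes oxidised methylcytosine, with 18.1 ± 2.24 (SD, n = 2). APOBEC3B had no count.

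**Figure D4:**
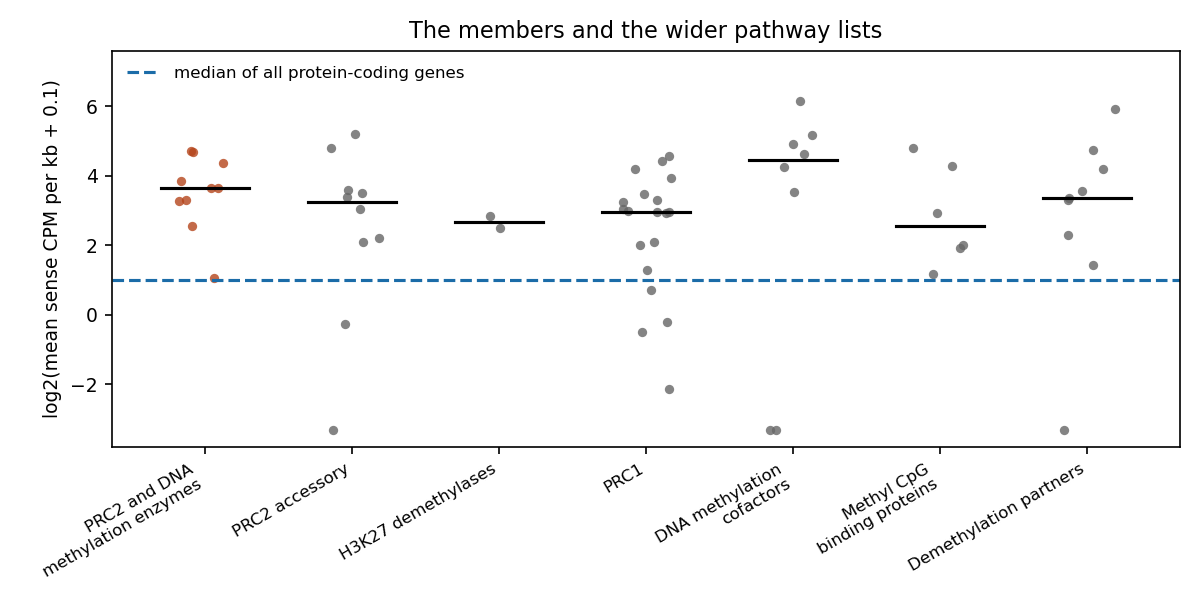
Mean sense CPM per kb of merged exon over both libraries, as log2(value + 0.1) on the vertical axis, for the 10 members (red) and 6 lists of the wider pathway (grey). Each point is a gene, black bars are list medians and the dashed line is the median of all protein-coding genes. The lowest member, DNMT3B with 1.98, lies at that line of 1.90, and the points at the bottom are genes without a count.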

How the data were processed

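Chromatin RNA-seq of 2 libraries was analysed. Per the methods, the authors extracted molecular identifiers with UMI-tools, trimmed reads, removed spike-in and rRNA reads with Bowtie, mapped with STAR, removed duplicates and mapped again (hg38 per the submitters' processing notes, with versions and annotation not given in the sources used here). Raw counts per gene were deposited, in column 2 (unstranded), 3 (opposite) and 4 (sense strand). Their 4 summary lines were left out of totals. Of 60554 genes, 56558 were matched to GENCODE 44, and the identifiers of 10 of 10 members carry another version there, so exon lengths are approximate.

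Column 4 was scaled to counts per 1000000 (CPM) and per kb of exon. Intervals are exact (95%, Clopper-Pearson for ratios and shares, Poisson for counts) and cover counting error only. A mean count of 10 is the limit of detection, 2.41 and 2.92 CPM in the libraries. No model was fitted. Exon copies were searched with blastn 2.17.0 at 100% or at least 95% identity over 75 bases. Promoter bases were read from hg38, and 9 of 10 starts equalled one in RefSeq (GRCh38.p14). Python 3.11.15, numpy 2.4.6, pandas 2.3.3, scipy 1.17.1 and matplotlib 3.10.9 were used.

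The members and lists were chosen with earlier results of these data known, although the rule for the members uses no value. Named are all members, genes named after them or sharing their exons, and of each list the 3 highest per kb and those with a mean count under 10. The promoter bases of DNMT3B are not reported here. Alternatives were the other columns, other exon lengths, raw counts, size factors by the median of ratios, other minimum counts and each library alone.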

Additional observations from a re-analysis of the deposited data

How the results depend on the processing

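No paired analysis was possible because only 1 condition was sampled. The 8 ratios between related members kept direction and separation with the unstranded column, with exons that no other gene shares, and in each library alone. Leaving out a replicate gave log2 ratios of 1.39 to 1.41 for EZH2/EZH1, -0.42 to -0.30 for EED/SUZ12, -0.87 to -0.84 for DNMT1/DNMT3A, 2.64 to 3.13 for DNMT1/DNMT3B, 3.51 to 3.97 for DNMT3A/DNMT3B, -1.86 to -1.77 for TET3/TET1, -1.13 to -1.08 for TET3/TET2 and -0.73 to -0.69 for TET2/TET1. The main transcript length reversed EED/SUZ12 (0.84), DNMT1/DNMT3A (0.14) and TET2/TET1 (0.068), through the lengths alone. Raw counts reversed TET2/TET1 (0.064) and left EED/SUZ12 unseparated (-0.26). On the opposite strand column, EZH2/EZH1 (1.05) and DNMT1/DNMT3A (-1.53) were not separated, at 36 or fewer counts a gene, and the other 6 pairs gave no value because a gene had 0 counts in at least 1 library. Detected there were 1 member and 8 of the 54 other genes, against 10 and 48 on the sense strand. With size factors by the median of ratios, 1 member (DNMT3A) in place of 2 differed between the libraries, without DNMT3B. Depth limits DNMT3B most, with 105 counts in all.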
